A study of Mus musculus with 108 samples.

Results

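The Hox genes encode homeodomain transcription factors that give cells their position along the head-to-tail axis of the embryo. This account describes the histone H3 chromatin states of 38 Hox genes, and of the 4 clusters that hold them, in the liver of C57BL/6 female mice. The genes were chosen by name and not by a measured value, and they are 38 of 26089 genes with a curated RefSeq transcript. They comprised 10 genes of the Hoxa cluster, 10 of the Hoxb cluster, 9 of the Hoxc cluster and 9 of the Hoxd cluster. H3K4me3, H3K27me3, H3K27ac and H3K4me1 were profiled by ChIP-seq on chromatin from livers that had been formalin-fixed and embedded in paraffin. SD 3m mice were 3 months old and SD 12m mice were 12 months old, both on standard diet (SD). CR 12m mice were 12 months old and had received a diet with 30% fewer calories (caloric restriction, CR) from 3 months of age, so that their age and their diet both differ from those of SD 3m. A group of 6 months on standard diet (SD 6m) was not analysed here.

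The libraries of a group, 30 for SD 3m, 29 for SD 12m and 29 for CR 12m, were pooled by the authors before each 200 bp bin of the genome received 1 of 8 chromatin states from ChromHMM, a hidden Markov model of mark combinations. The labels name 8, 8 and 9 mice in these groups, but each group has 1 segmentation, so no spread between mice is known and no test of a difference between groups was possible. Shares of bins are given with Wilson 95% intervals, which cover counting of bins only, and neighbouring bins are not independent. H3K4me3 came from 7, 8 and 5 libraries in SD 3m, SD 12m and CR 12m, and H3K27me3 from 7, 8 and 6. H3K27ac came from 8, 7 and 9 libraries and H3K4me1 from 8, 6 and 9. The number of reads behind a state is unknown. States 1 and 2 are the TSS states (H3K4me3 with H3K27ac, in state 2 also with H3K4me1), states 3 to 5 are enhancer states (3 and 4 with H3K27ac, 5 mainly with H3K4me1), state 6 is Polycomb-repressed chromatin with H3K27me3 alone, state 7 holds weak H3K4me3 with little H3K27me3, and state 8 none of the marks. Apart from these faint signals in state 7, no state joins H3K4me3 to H3K27me3, so the state of a bin may not show whether a TSS carried both marks. A liver holds several cell types, and a mark on fewer cells cannot be told apart from less of the mark per cell. The TSS bins of 8 of 8 hepatocyte markers, among them Alb and Hnf4a, were in states 1 to 5 in each group. Of the 4 Kupffer cell markers 0 were in states 1 to 5, of 4 lymphoid and blood markers 2, 2 and 1, of 4 endothelial markers 2, 2 and 4, of 5 stellate cell and fibroblast markers 2, 2 and 1, and of 4 cholangiocyte markers 1, 2 and 3, in SD 3m, SD 12m and CR 12m. The part of these cells in the Hox states was not tested.

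Hox genes lie in tight clusters, all transcribed from the same strand, and their order in the cluster follows their order of use: genes with low paralog numbers, at the 3′ end, are switched on earlier and more anteriorly than genes with high numbers at the 5′ end. Outside their domain they are kept silent by Polycomb complexes, of which EZH1 and EZH2 place H3K27me3, and their active state is maintained by the Trithorax-group methyltransferases KMT2A and KMT2B, which methylate H3K4. Retinoic acid opens the clusters from the 3′ end through response elements known as DR5, direct repeats with a spacer of 5 bases.

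In mm10 (GRCm38) the span of the genes was chr6:52162417-52260880 for Hoxa, chr11:96194316-96368253 for Hoxb, chr15:102921131-103036852 for Hoxc and chr2:74668225-74765142 for Hoxd. Promoters of 22 of the 38 genes were matched in the RefSeq table for GRCm38.p6, each with 250 bases before and 50 after the start. Those below stand for the kinds of behaviour described in the next paragraphs, with CpG dinucleotides, the sites of DNA methylation and a feature of Polycomb target promoters, in capitals. Hoxa2 was in states 1 to 5 in each group, Hoxa7 left them for state 6 at 12 months on both diets, Hoxa5 left state 6 in CR 12m only among the groups studied, and Hoxa6 was in state 6 in each group.
Hoxa2 promoter, chr6:52164782-52165081, minus strand: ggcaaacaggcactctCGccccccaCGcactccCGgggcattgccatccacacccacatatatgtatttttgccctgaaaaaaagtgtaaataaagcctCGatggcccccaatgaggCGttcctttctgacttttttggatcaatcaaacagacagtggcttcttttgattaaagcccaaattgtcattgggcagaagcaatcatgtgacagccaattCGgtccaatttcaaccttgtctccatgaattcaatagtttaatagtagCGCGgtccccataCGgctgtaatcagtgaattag
Hoxa7 promoter, chr6:52218524-52218823, minus strand: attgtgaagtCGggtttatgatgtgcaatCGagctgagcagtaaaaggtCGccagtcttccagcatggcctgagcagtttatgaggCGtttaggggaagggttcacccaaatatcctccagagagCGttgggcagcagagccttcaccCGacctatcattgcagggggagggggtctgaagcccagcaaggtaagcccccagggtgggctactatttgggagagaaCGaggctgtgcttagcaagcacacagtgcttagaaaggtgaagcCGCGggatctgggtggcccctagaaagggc
Hoxa5 promoter, chr6:52204538-52204837, minus strand: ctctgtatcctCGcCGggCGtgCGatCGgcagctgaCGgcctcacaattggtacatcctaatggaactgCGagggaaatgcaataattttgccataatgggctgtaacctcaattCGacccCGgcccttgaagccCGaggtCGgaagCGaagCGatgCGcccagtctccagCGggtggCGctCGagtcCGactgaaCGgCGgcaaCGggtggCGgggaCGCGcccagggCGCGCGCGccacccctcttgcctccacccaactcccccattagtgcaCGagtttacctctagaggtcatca
Hoxa6 promoter, chr6:52208623-52208922, minus strand: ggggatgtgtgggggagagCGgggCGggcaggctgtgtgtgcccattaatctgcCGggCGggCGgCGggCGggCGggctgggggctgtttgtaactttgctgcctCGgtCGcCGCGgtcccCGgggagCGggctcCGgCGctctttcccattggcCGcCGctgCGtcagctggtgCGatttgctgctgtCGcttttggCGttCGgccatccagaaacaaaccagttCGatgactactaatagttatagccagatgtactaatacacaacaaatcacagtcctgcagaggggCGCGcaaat
These promoters hold 9, 9, 29 and 26 CpG. The matched Hox promoters held between 4 and 45, with a median of 13.5, whereas the median of all 32851 promoters in the table was 7 and 94.6% of them held at least 1. CpG number did not separate the kinds of behaviour, as Hoxa2 and Hoxa7 have the same number and Hoxa5 and Hoxa6 similar ones.

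The TSS of most Hox genes was in Polycomb-repressed chromatin. In SD 3m the TSS bin of 30 of 38 Hox genes was in state 6, against 11.0% of all 26089 TSS. In SD 12m it was 33 of 38, against 14.9%, and in CR 12m 31 of 38, against 12.2%. The TSS bins of 29 Hox genes were in state 6 in all 3 groups, against 6.60% of all TSS, and around each of these 29 all 11 bins within 1 kb were in state 6 in all 3 groups. States 7 and 8 were found at no Hox TSS in any group, although state 8 held 29.1%, 22.9% and 27.5% of all TSS in SD 3m, SD 12m and CR 12m.

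**Figure D1:**
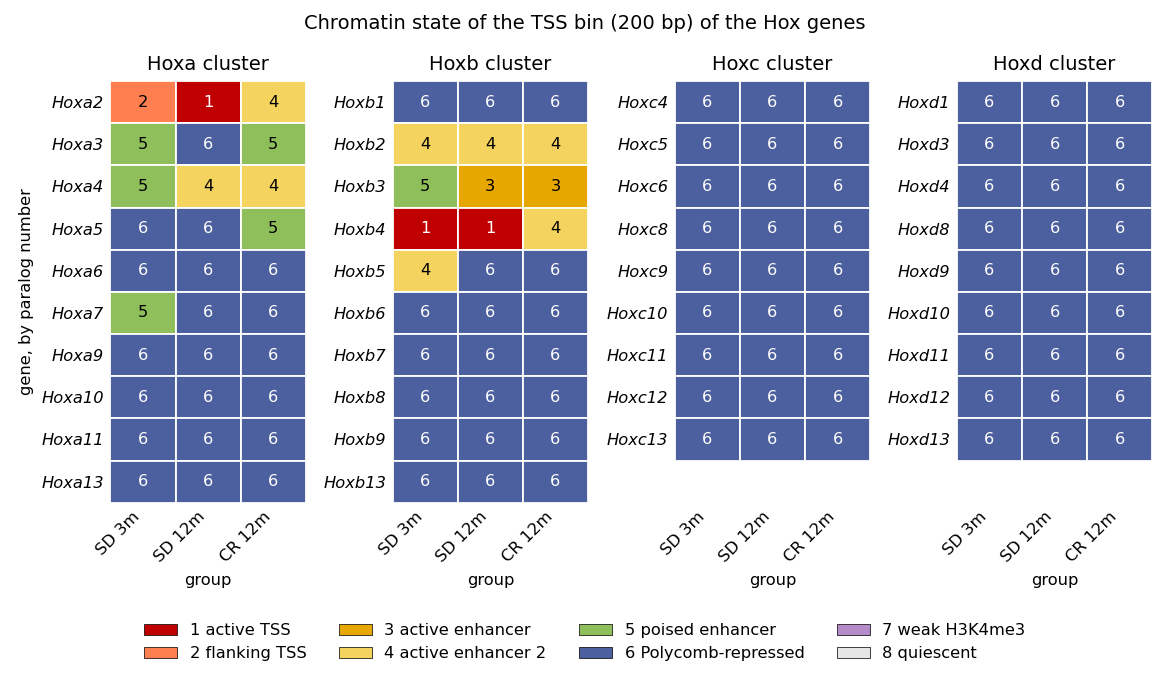
State of the 200 bp bin that holds the TSS, for each of the 38 Hox genes (rows, by paralog number) in SD 3m, SD 12m and CR 12m (columns). State 6 fills all cells of Hoxc and Hoxd, and the 9 genes with another state in at least 1 group are Hoxa2, Hoxa3, Hoxa4, Hoxa5, Hoxa7 and Hoxb2 to Hoxb5.

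The exceptions lay in 2 clusters and at low paralog numbers. The 18 genes of Hoxc and Hoxd were all in state 6 in each group, among them Hoxc13, known from hair formation, and Hoxd13 and Hoxd10 to Hoxd12, known from limb and digit patterning. The 19 genes of paralog groups 8 to 13 were also all in state 6 in each group, 7 of them in Hoxa and Hoxb. These include Hoxa9, known from blood progenitors, Hoxa10 and Hoxa11, known from the uterus, Hoxa13, and Hoxb13, known from the prostate. Of the 13 genes of paralog groups 1 to 7 in Hoxa and Hoxb, 9 were in another state in at least 1 group. The 4 that stayed in state 6 were Hoxa6, Hoxb1, Hoxb6 and Hoxb7. Hoxb1, which specifies a hindbrain segment, is the gene at the 3′ end of its cluster, and so lies beyond Hoxb2 to Hoxb5 at the side opposite to Hoxb6 and Hoxb7.

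The genes in TSS states were Hoxa2 and Hoxb4 only. Hoxa2, which patterns the hindbrain and the neural crest of the second arch, had its TSS bin in states 2, 1 and 4 in SD 3m, SD 12m and CR 12m. Of its 11 bins within 1 kb, 11, 7 and 0 were in states 1 and 2. Hoxb4, known for its effect on blood stem cells, had its TSS bin in states 1, 1 and 4 in the same groups, with 6, 1 and 0 of 11 bins in states 1 and 2. For both genes the TSS states thus covered fewer bins in SD 12m than in SD 3m and none in CR 12m, where the bins were in enhancer states. States 1 and 2 held 40.1%, 34.7% and 30.7% of all TSS in SD 3m, SD 12m and CR 12m. Of all TSS with states 1 or 2 in SD 3m, 16.5% had left these states in SD 12m and 25.9% in CR 12m, and of the 2 Hox TSS 0 and 2 had.

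Hoxa4, Hoxb2 and Hoxb3 were in enhancer states in each group. Hoxa4 changed from state 5 to state 4 in both older groups. Hoxb3 changed from state 5 to state 3 in both older groups, in each of which 11 of 11 bins within 1 kb were in enhancer states, and the start of its shorter transcript, 20.6 kb downstream, was in state 3 in each group. Hoxb2, which acts with Hoxa2 in the hindbrain, was in state 4 in each group. Within 1 kb of its TSS 3, 3 and 0 of 11 bins were in states 1 and 2 in SD 3m, SD 12m and CR 12m. In CR 12m no bin within 1 kb of any of the 38 TSS was in state 1 or 2.

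Hoxa7 and Hoxb5, both patterning genes of the trunk, went from enhancer states to state 6 in both older groups. At Hoxa7 the TSS bin was in states 5, 6 and 6 in SD 3m, SD 12m and CR 12m, and the bins of state 6 within 1 kb numbered 4, 11 and 11 of 11. At Hoxb5 the TSS bin went from state 4 to state 6 in both, with 3, 6 and 7 of 11 bins in state 6. Hoxb5 thus lies on the edge of the repressed domain in all 3 groups, whereas Hoxa7 was inside it at 12 months.

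Hoxa3 and Hoxa5 differed between the 2 diets at 12 months. Hoxa3, required for the thymus and parathyroid glands, was in states 5, 6 and 5 in SD 3m, SD 12m and CR 12m, with 0, 11 and 5 of 11 bins in state 6. The start used for Hoxa3 is that of a transcript of 44.0 kb and lies between the starts of Hoxa6 and Hoxa7, and over the 221 bins of the gene 82.8, 72.4 and 83.3% were in states 1 to 5, so that most of the gene was outside state 6 in each group. Hoxa5, required for lung development, was in states 6, 6 and 5, with 11, 11 and 1 of 11 bins in state 6. Within 1 kb of both starts CR 12m had more enhancer bins than SD 12m. Between SD 12m and CR 12m the TSS bins of 4 of 38 Hox genes differed in state (Hoxa2, Hoxa3, Hoxa5 and Hoxb4), against 26.7% of all TSS.

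**Figure D2:**
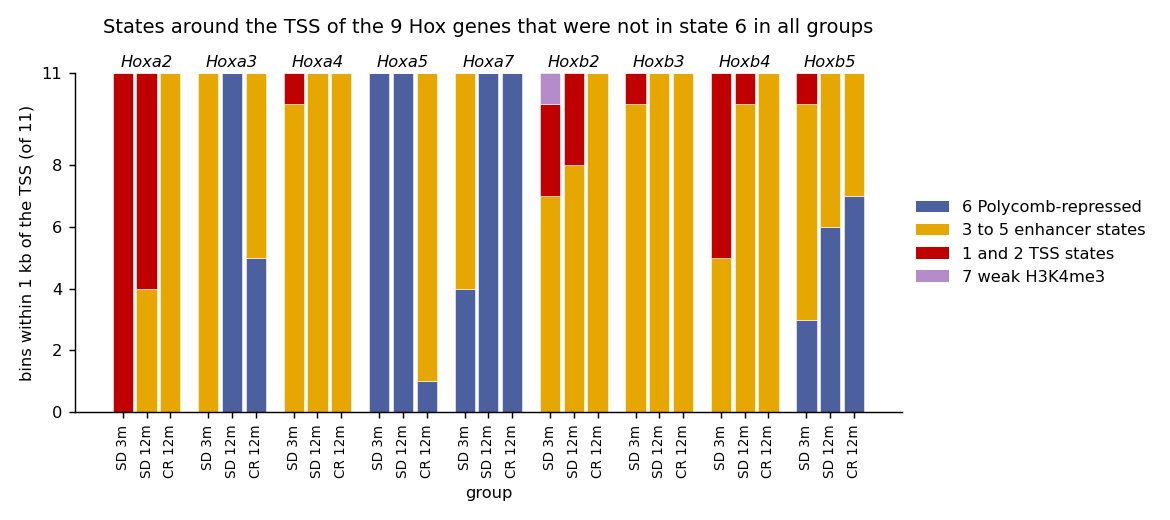
Number of the 11 bins within 1 kb of the TSS (vertical axis) in state 6, in states 3 to 5, in states 1 and 2 and in state 7, for the 9 Hox genes that were not in state 6 in all groups, in SD 3m, SD 12m and CR 12m. States 1 and 2 are absent from the CR 12m bars, and Hoxa3, Hoxa5, Hoxa7 and Hoxb5 move between state 6 and enhancer states.

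Counted over all 38 genes, 6 TSS bins of SD 12m differed in state from SD 3m, against 32.6% of all TSS, and 7 of CR 12m did, against 34.7%. These 2 comparisons share the SD 3m segmentation. The genes that changed are those described above. Of the 30 Hox TSS in state 6 in SD 3m, 0 were in another state in SD 12m, against 26.6% of all TSS in state 6, and 1 (Hoxa5) in CR 12m, against 34.3%. Of the 8 Hox TSS in states 1 to 5 in SD 3m, 3 (Hoxa3, Hoxa7 and Hoxb5) were in state 6 in SD 12m, against 1.11% of all such TSS. In CR 12m it was 2 of 8 (Hoxa7 and Hoxb5), against 1.23%. Hoxa3 and Hoxa7 lay in the same state 5 stretch of 8.4 kb in SD 3m and in the same state 6 stretch in SD 12m. Their changes are thus not independent, and Hoxb5 lay on the edge of a state 6 stretch. Changes between active states were also counted, and 6 of the 8 Hox TSS had another state in each of SD 12m and CR 12m, against 32.4% and 39.0%. The shares for TSS in states 1 to 5 are over an unlike mix of states. Of those 15190 TSS 10449 were in states 1 or 2 in SD 3m, but of the 8 Hox TSS 2 were, and 4 were in state 5. Over the genome 31.3% of state 5 bins kept their state in SD 12m and 3.26% went to state 6. For state 1 bins the shares were 61.3% and 0.549%.

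**Figure D3:**
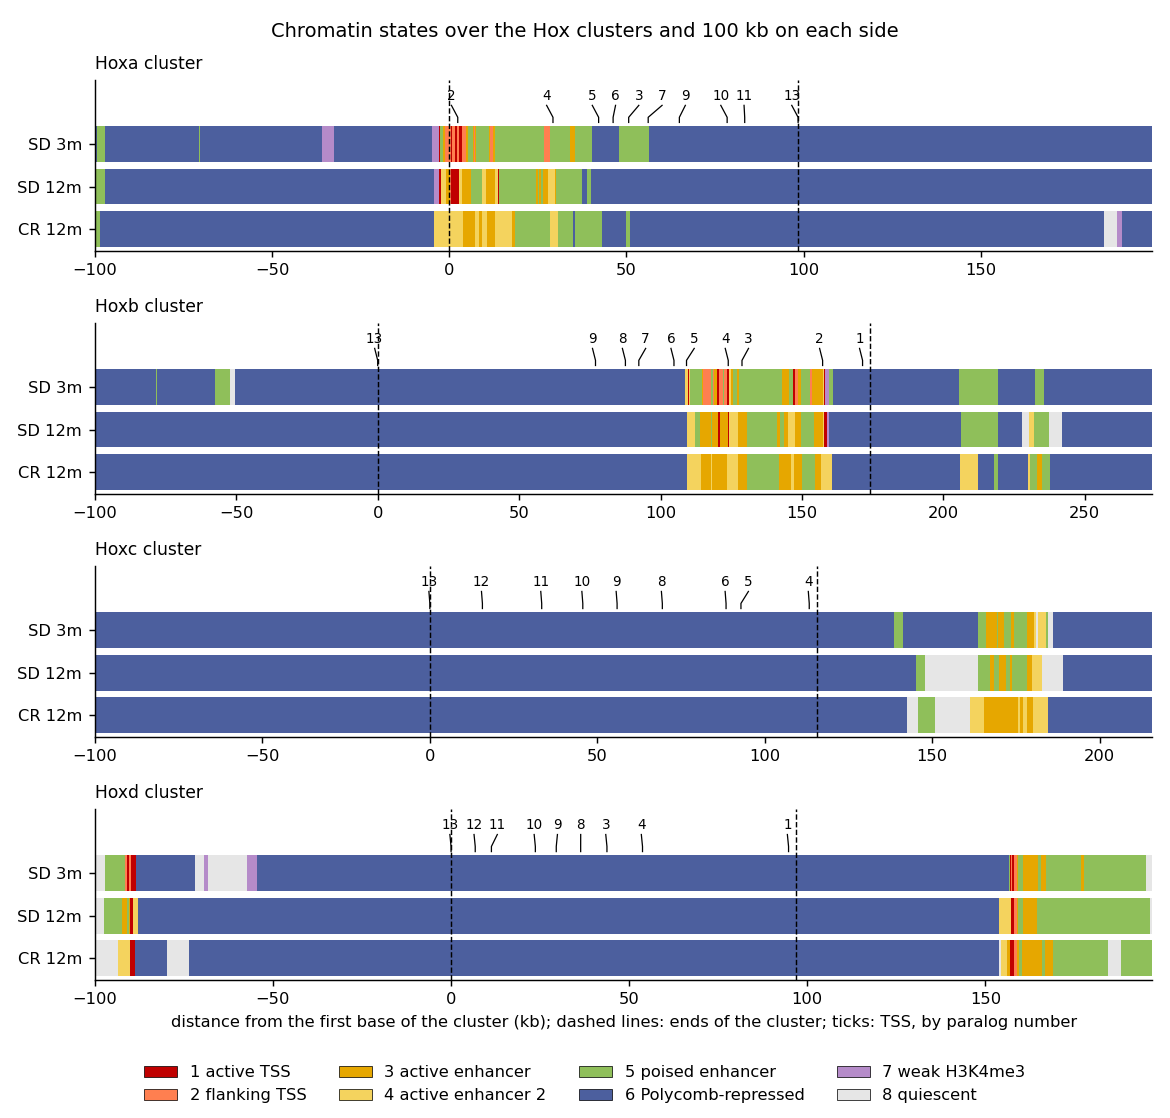
Chromatin states along each Hox cluster and 100 kb on each side, as distance in kb from the first base of the cluster (dashed lines mark its ends, ticks the TSS by paralog number), with rows for SD 3m, SD 12m and CR 12m. Hoxc and Hoxd are covered by state 6 from end to end, while Hoxa and Hoxb each hold 1 block mainly of TSS and enhancer states. In Hoxa this block is interrupted by state 6.

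Over the clusters as a whole, Hoxc and Hoxd were in state 6 from end to end. All 580 bins of Hoxc (interval from 99.3%) and all 485 bins of Hoxd (from 99.2%) were in state 6 in each group, and not 1 of these 1065 bins changed. Of the 493 Hoxa bins, state 6 took 50.5% (46.1 to 54.9%), 60.9% (56.5 to 65.1%) and 55.8% (51.4 to 60.1%) in SD 3m, SD 12m and CR 12m. Of the 871 Hoxb bins it took 69.9% (66.8 to 72.9%), 71.2% (68.1 to 74.1%) and 70.7% (67.6 to 73.6%). In Hoxa these shares stand for 249, 300 and 275 bins, and neighbouring bins moved together at the edge of the block described below. Over the genome state 6 covered 9.48%, 14.4% and 10.3% of bins in the same groups.

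**Figure D4:**
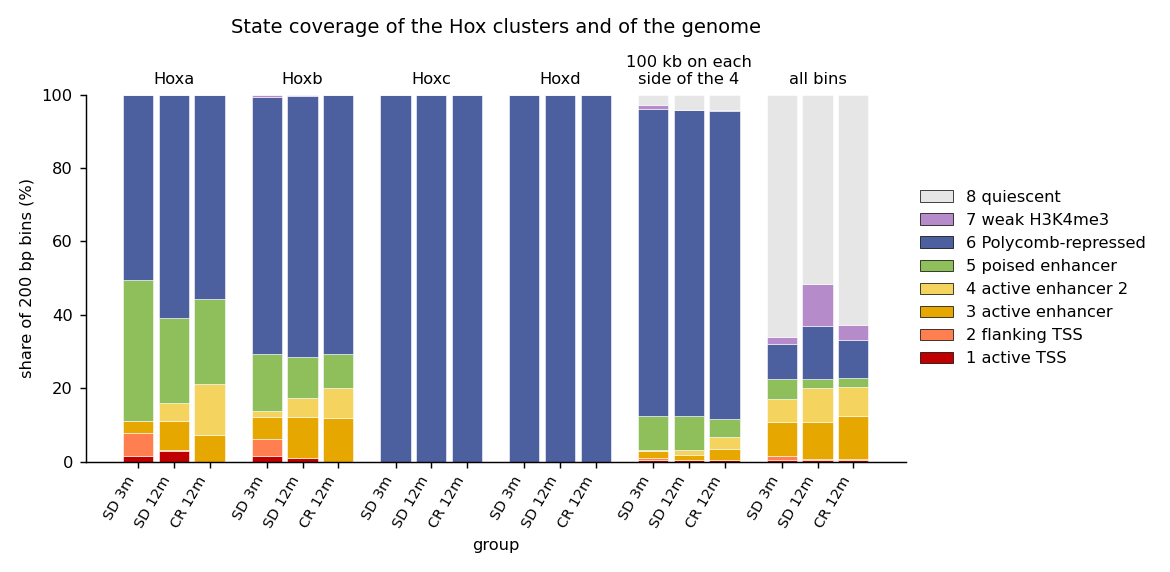
Share of 200 bp bins in each state (stacked, vertical axis in percent) for the 4 clusters, for the 100 kb on each side of them (pooled) and for all bins, in SD 3m, SD 12m and CR 12m. State 8 covers most of the genome and is absent from the clusters, and states 1 and 2 are absent from Hoxa and Hoxb in CR 12m.

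The block of active states in Hoxa ran from the 3′ end of the cluster inward. Blocks were taken from the first to the last bin in states 1 to 5, so their lengths include bins of other states between these. In SD 3m the Hoxa block extended over 59.4 kb, from chr6:52159401 to chr6:52218800, and held the TSS of Hoxa2 to Hoxa7. In it 12.8% of bins were in state 6, among them the TSS bins of Hoxa5 and Hoxa6. In SD 12m it ended earlier, at chr6:52202400, was 43 kb long and held the TSS of Hoxa2 and Hoxa4, with 3.26% of bins in state 6. In CR 12m it ended at chr6:52213400, was 55.2 kb long and held those of Hoxa2 to Hoxa6. There 13.4% of its bins were in state 6, among them the TSS bin of Hoxa6. The 3′ edge of the block thus differed by 1.2 kb among the groups and its 5′ edge by up to 16.4 kb. In Hoxb the block lay inside the cluster, between Hoxb1 and Hoxb6, and its length was 52.4, 49.6 and 51 kb in SD 3m, SD 12m and CR 12m. It held Hoxb2 to Hoxb5 in SD 3m, and Hoxb2 to Hoxb4 in SD 12m and CR 12m, because its 5′ edge, next to Hoxb5, differed by up to 0.8 kb. Its 3′ edge differed more, by up to 2.2 kb, unlike in Hoxa.

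Inside the blocks the TSS states changed more than the length did. In the Hoxa block states 1 and 2 held 46, 19 and 0 bins in SD 3m, SD 12m and CR 12m. In the Hoxb block the numbers were 54, 9 and 0. Both clusters thus had the most TSS-state bins in SD 3m and none in CR 12m. H3K4me3, a mark of both TSS states, came from 7, 8 and 5 libraries in SD 3m, SD 12m and CR 12m. The part of library number in this difference was not tested. Of the 92 bins of the Hoxa and Hoxb clusters in states 1 and 2 in SD 3m, 73 had left these states in SD 12m, against 52.2% of such bins over the genome, and 92 had left them in CR 12m, against 59.4%. Of the 72 state 2 bins of SD 3m, 53 went to state 3 in SD 12m and 48 in CR 12m, so that the largest part went to the active enhancer state. Over the genome 55.2% and 61.5% of state 2 bins went the same way. Of the 325 state 5 bins of SD 3m, 187 kept it in SD 12m and 160 in CR 12m, against 31.3% and 25.6% over the genome. A further 58 (17.8%) and 40 (12.3%) of the 325 were in state 6, against 3.26% and 3.88% over the genome.

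State 6 bins of the clusters hardly changed. Of the 1923 state 6 bins of SD 3m, 1923 kept it in SD 12m (100%, interval from 99.8%), while over the genome 39.2% of state 6 bins were in another state. In CR 12m it was 1910 of 1923 (99.3%, 98.8 to 99.6%), while over the genome 47.8% were in another state. The 13 bins that left state 6 in CR 12m were all in Hoxa and all entered states 1 to 5. Over the genome most of the bins that left state 6 went to state 8, namely 34.1% of state 6 bins in SD 12m and 43.4% in CR 12m, and no bin of the clusters did. In the other direction, of the 499 bins of Hoxa and Hoxb in states 1 to 5 in SD 3m, 61 were in state 6 in SD 12m and 46 in CR 12m. Most of these, 51 and 39, were in Hoxa. Over the genome 0.857% and 1.08% of bins in states 1 to 5 made this change.

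The clusters were parts of long repressed stretches. The longest unbroken stretch of state 6 that overlapped Hoxc was 321.2, 338.8 and 333.2 kb long in SD 3m, SD 12m and CR 12m, and held all 9 Hoxc TSS. In order of length it was number 2 of 14481, 16 of 17033 and 2 of 14777 stretches, and the median stretch was 9.8, 11.8 and 10.6 kb long. The Hoxd stretch, with all 9 TSS, was 211.2, 241.8 and 227.4 kb long, and the Hoxb stretch, which ran from the 5′ side to Hoxb6 or Hoxb5, was 159.2, 218.8 and 221.2 kb. Each of these 3 was longer in both older groups than in SD 3m. The Hoxa stretch, from the edge of the active block past Hoxa13, was 254 kb in SD 3m and 275.2 kb in SD 12m but 133.8 kb in CR 12m, where it was interrupted beyond Evx1.

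Stretch length was related to the keeping of state 6 over the whole genome, and so was set beside the clusters. Outside the clusters, of the state 6 bins of SD 3m in stretches under 10 kb 35.5% were in state 6 in SD 12m, and of those in stretches of 100 kb or more 86.5% were. The shares in CR 12m were 28.2% and 77.6%. Bins in such long stretches that also held 5 or more CpG kept state 6 in 87.4% and 82.9% of cases. The clusters, with 100% and 99.3%, lay above these values, and their 103 bins in stretches under 100 kb kept it in 100% (interval from 96.4%) and 87.4% (79.6 to 92.5%). At the TSS, 336 of 358 non-Hox TSS in stretches of 100 kb or more kept state 6 in SD 12m and 322 in CR 12m, and 27 of 27 Hox TSS did in both. These 27 lay in the longest SD 3m stretch of each cluster, with 4, 5, 9 and 9 TSS in Hoxa, Hoxb, Hoxc and Hoxd. They are thus not independent. The part of stretch length in the result was not tested.

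**Figure D5:**
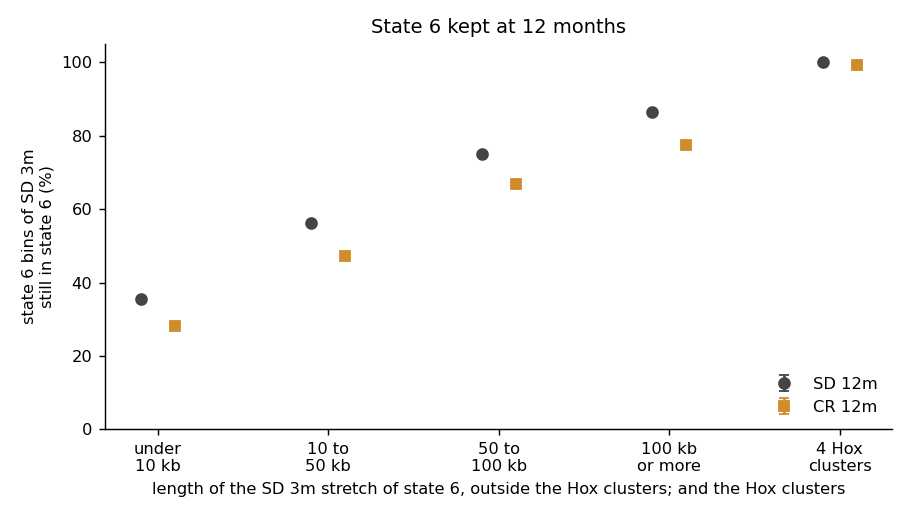
Share of the state 6 bins of SD 3m that were in state 6 in SD 12m (circles) and in CR 12m (squares), in percent, by length of the SD 3m stretch outside the Hox clusters, and for the 4 Hox clusters; bars are Wilson 95% intervals over bins and are smaller than the symbols. The share rises from 35.5% and 28.2% in stretches under 10 kb to 86.5% and 77.6% in those of 100 kb or more, and is 100% and 99.3% in the clusters.

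With 100 kb on each side, the windows held 6429 bins, of which 10.7% (9.98 to 11.5%) changed state between SD 3m and SD 12m, against 31.9% of all bins. In CR 12m it was 14.4% (13.5 to 15.2%), against 24.2%. The windows thus changed less than the genome in both comparisons. Without the flanks, 26.6% of Hoxa bins (22.9 to 30.6%) changed to SD 12m and 32.9% (28.9 to 37.1%) to CR 12m. The Hoxa cluster thus changed more than the genome in CR 12m. Of Hoxb bins 14.2% changed to SD 12m and 16.5% to CR 12m. The state 6 share of the windows was 82.0% (81.0 to 82.9%), 82.8% (81.8 to 83.7%) and 82.6% (81.7 to 83.5%) in SD 3m, SD 12m and CR 12m. The share of states 1 to 5 was 15.4%, 14.5% and 14.6%. State 6 bins of SD 3m in the windows kept it in 96.6% of cases in SD 12m (96.1 to 97.1%) and in 95.9% in CR 12m (95.3 to 96.4%). The Hoxc window was the only 1 of the 4 whose state 6 share was lower in both older groups than in SD 3m, 92.0% against 86.1% and 86.6%, and its loss lay outside the cluster.

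Genes flanking the clusters, other than Hox genes and the RNA genes described below, marked the ends of some repressed domains. Evx1 and Evx2, even-skipped homeobox genes on the sides of Hoxa13 and Hoxd13, had their TSS in state 6 in each group. So had Ttll6 and Skap1, on either side of Hoxb. Skap2 and Mtx2, beyond the 3′ ends of Hoxa and Hoxd, had theirs in state 1 in each group, and so had Calcoco1 beyond the 5′ end of Hoxc. Smug1, beyond the 3′ end of Hoxc, was in states 2, 1 and 1. Skap2, Calcoco1 and Smug1 lie more than 100 kb from their cluster.

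RNA genes inside and next to the clusters were in several states. Of 11 with a start inside a cluster, 6 were in state 6 in all 3 groups, against 6.60% of all TSS, among them Hotair in Hoxc, a long noncoding RNA studied for its binding to Polycomb. The number of these 11 in states 1 to 5 was 4, 3 and 5 in SD 3m, SD 12m and CR 12m, against 58.2%, 58.3% and 58.9% of all TSS. Apart from Hotair, the 6 in state 6 are microRNA genes, whose annotated starts lie next to the mature sequences. Such a start may not be where transcription begins, so the shares of all TSS are an unlike measure for it. Outside the Hoxa span, Hottip (1.9 kb beyond Hoxa13) and Halr1 (59.5 kb beyond the 3′ end) were in state 6 in each group. The microRNAs miR-10a and miR-10b, which differ in sequence outside their shared seed, lie near Hoxb4 and Hoxd4. Their mature sequences from RefSeq are given with the seed (bases 2 to 8) in capitals, beside those of the other microRNA pair with a common seed.
mmu-miR-10a-5p, chr11:96317186-96317208: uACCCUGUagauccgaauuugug
mmu-miR-10b-5p, chr2:74726074-74726096: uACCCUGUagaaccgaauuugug
mmu-miR-196a-5p, chr15:102973365-102973386: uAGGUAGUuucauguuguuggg
mmu-miR-196b-5p, chr6:52230129-52230150: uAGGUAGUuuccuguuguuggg
The start of Mir10a was in states 2, 3 and 3 in SD 3m, SD 12m and CR 12m, inside the Hoxb block, while that of Mir10b was in state 6 in each group. The starts of Mir196a-1, Mir196a-2, Mir196b and Mir615 were in state 6 in each group. The 2 loci with the miR-10 seed thus had different states, and the loci with the miR-196 seed the same. At the 3′ end of Hoxa the antisense RNA Hoxaas2 was in state 1 in SD 3m and in state 4 in both older groups, and Hotairm1, a myeloid noncoding RNA that starts 3.89 kb outside the span, was in states 7, 7 and 4. Hoxaas3, near Hoxa5, was in states 5, 6 and 5, as Hoxa3 was. Hoxb3os was in states 7, 7 and 4, although no Hox TSS was in state 7, and Hoxb5os in states 5, 5 and 4, where Hoxb5 was in states 4, 6 and 6.

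Retinoic acid response elements of the DR5 kind were searched on both strands of the windows. Their sequence is printed from GRCm38.p6 with the 6-base repeats in capitals, for the 4 matches inside the clusters.
Hoxa, chr6:52175533-52175549, minus strand: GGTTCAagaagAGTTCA
Hoxb, chr11:96341236-96341252, plus strand: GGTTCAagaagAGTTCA
Hoxb, chr11:96212029-96212045, minus strand: AGGTCAgggaaGGGTCA
Hoxd, chr2:74741540-74741556, plus strand: GGTTCAagcagAGTTCA
The first of these lies 10.7 kb from the TSS of Hoxa2 and the second 10.4 kb from that of Hoxb2, and they are identical in all 17 bases. They lie inside the spans of Hoxa3 and Hoxb3, and the second is nearer to the start of the shorter Hoxb3 transcript than to Hoxb2. The Hoxa site was in state 5 in SD 3m and in state 4 in both older groups, and the Hoxb site inside Hoxb3 in state 1 in SD 3m and in state 4 in both older groups. The site near Hoxb13 and the site between Hoxd4 and Hoxd1 were in state 6 in each group. The matches in the flanks were in state 6 in each group, except that at chr15:103061714-103061730, beyond Hoxc4. It was in state 5 in SD 3m and in state 6 in both older groups. Of the matches in the windows, only the identical Hoxa and Hoxb sites lay inside an active block. The windows held 10 matches in 6429 bins (0.156%), and 0.0692% of all bins hold 1. A match is a description of the letters and not evidence of binding.

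In sequence the clusters were richer in CpG and poorer in repeats than the genome. The clusters held 4.87 CpG per bin against 1.67 over all bins and 1.83 over state 6 bins of SD 3m, and 18.2% of their bases were repeats against 34.3% and 28.0%. Within Hoxa and Hoxb, bins in state 6 in SD 3m held 4.76 CpG, bins in states 3 to 5 held 4.92 and bins in states 1 and 2 held 4.77. In SD 12m the values were 4.89, 4.52 and 7.32, the last over 25 bins. Repeats took 23.6, 14.7 and 18.4% of the bases of these bins in SD 3m and 22.8, 16.4 and 10.5% in SD 12m, so that state 6 bins had the most repeats of the 3 kinds in both groups. The 11 bins around a Hox TSS held a median of 92.5 CpG, against 59 for all TSS and 45 for the 2851 other TSS in state 6 in SD 3m. The 29 Hox TSS in state 6 in all groups had a median of 93 (24 to 204), and the other 9 a median of 91 (27 to 181). The lowest value of the first set was at Hoxd4 and the highest at Hoxd8, whereas in the second set they were at Hoxb3 and Hoxa4.

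The genes that act with or on the Hox genes were examined in the same way. Of 9 cofactors, the TALE homeodomain proteins of the Pbx, Meis and Pknox families, 5, 7 and 7 had their TSS in states 1 to 5 in SD 3m, SD 12m and CR 12m. The shares of all TSS in these states were 58.2%, 58.3% and 58.9%. Pbx2 was in state 1 in each group, Pbx3 and Pknox1 went from state 7 to state 4 in both older groups, and Pknox2 was in states 6, 7 and 8. Of 17 Polycomb subunits 16, 17 and 17 were in states 1 to 5, including Ezh2, Eed and Suz12 in state 1 in each group, and Bmi1 went from state 7 to state 4. Ezh1 was in state 2 in SD 3m and in state 3 in both older groups. The 6 genes for H3K27 demethylases and for subunits of H3K4 methyltransferase complexes, among them Kmt2a, Kmt2b and Men1, were all in states 1 to 5 in each group, and Kdm6b, an H3K27 demethylase, was in states 1, 1 and 5. Of 13 related homeobox genes outside the clusters, each group had 12 in state 6, against 11.0%, 14.9% and 12.2% of all TSS. In all 3 groups 11 were in state 6, among them Pdx1, Gsx1, Cdx2 and Mnx1, against 6.60%. These 11 include Evx1 and Evx2, which lay in the same state 6 stretches as Hoxa13 and Hoxd13 and so are not independent of the clusters. Cdx4 was in state 6 in SD 3m and in state 8 in both older groups.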

How the data were processed

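ChIP-seq of H3K4me3, H3K27me3, H3K27ac and H3K4me1 was available from 108 libraries of mouse liver. The authors aligned reads to mm10 with BWA 0.6.2-r126, filtered them with SAMtools 0.1.18 (both per the submitters' processing notes), merged the libraries of each group, and deposited ChromHMM labels of 8 states for 13168874 bins of 200 bp. A value is a label, not a signal. All bins of the 3 segmentations were used. TSS came from the longest curated RefSeq transcript in GRCm38.p6. Python 3.11.15 (numpy 2.4.6, pandas 2.3.3, scipy 1.17.1, matplotlib 3.10.9) gave shares, transitions and Wilson 95% intervals, and its functions were tested on simulated segmentations.

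The 38 members and all lists were chosen with earlier results of these data known. Described singly were genes whose TSS bin was not in state 6 in all groups or changed state, and the longest state 6 stretch of each cluster. So were a flanking gene on each side, other than Hox genes and the listed RNA genes, and 1 promoter per kind of behaviour. Stretch length and CpG classes were added after the data were seen. Other Hox genes are not reported here. Alternatives varied the TSS, the flank, the labels and the clusters pooled. No test across mice was possible.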

Additional observations from a re-analysis of the deposited data

Results flagged for a closer look

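In 3 windows of a cluster with 100 kb on each side, a share of bins lay above its SD 3m value in 1 of the groups of 12 months and below it in the other. Each group has 1 segmentation and the differences were not tested. In the Hoxb window state 6 took 79.4, 79.3 and 82.3% of bins in SD 3m, SD 12m and CR 12m, so the decrease in SD 12m is of 1 bin. In the Hoxc window states 1 to 5 took 7.28, 6.84 and 8.99%. In the Hoxd window they took 15.8, 17.4 and 14.7%. All the bins behind the Hoxc and Hoxd values lie outside the clusters, which were in state 6 throughout.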

How the results depend on the processing

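No value can be given with a mouse left out, and the depth behind a state is unknown. No paired analysis was possible because the libraries of each group were merged before the states were called. Of 118 values under another setting, 63 stayed within their interval or within 1.5 times the count, and the cause of the other 55 was not tested beyond what each setting leaves out or adds. The numbers of TSS in state 6 (30, 33 and 31) were the same with the most frequent state within 500 bp or 1 kb, or stretches under 1 kb absorbed. The most upstream TSS was the TSS already used for every Hox gene, and so tests nothing. With the most downstream TSS, an alternative chosen after seeing the data that moves the start of 4 genes, the numbers were again 30, 33 and 31, and the TSS that changed numbered 5 (SD 12m) and 6 (CR 12m). With states merged into 5 classes the TSS that changed in SD 12m numbered 3 in place of 6. In SD 3m, SD 12m and CR 12m, the share of state 6 in the windows was 85.5, 85.7 and 85.4% with 50 kb on each side and 74.4, 73.0 and 73.7% with 200 kb, and that of states 1 to 5 was 13.8, 12.3 and 13.1% and 17.2, 18.04 and 17.8%. State 6 in the windows was 83.1 and 84.2% without Hoxb (SD 3m, SD 12m), 78.7, 81.6 and 81.3% without Hoxc, and 83.6 and 83.5% without Hoxd (SD 3m, CR 12m). States 1 to 5 took 13.6, 12.9 and 13.3% without Hoxb, 18.1, 17.1 and 16.4% without Hoxc, and 13.7% without Hoxd (SD 12m). In the clusters alone, where state 6 took 79.2, 81.7 and 80.5%, it took 86.5, 87.0 and 86.8% without Hoxa, 84.3, 87.6 and 86.0% without Hoxb, 72.6, 76.0 and 74.4% without Hoxc, and 74.0, 77.2 and 75.7% without Hoxd. Bins changed from SD 3m to SD 12m were 8.99% with 50 kb, 12.7% with 200 kb, 8.18% with merged classes and 8.92% without bins next to a boundary. To CR 12m they were 12.2% with 50 kb, 15.3% without Hoxc, 10.002% with merged classes and 12.4% without bins next to a boundary. State 6 bins kept were 97.6 and 96.9% (SD 12m, CR 12m) with 50 kb, 94.1 and 94.5% with 200 kb, 98.1 and 97.1% without Hoxc, 95.6% without Hoxa (SD 12m) and 94.9% without Hoxb (CR 12m).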
